A study of Mus musculus with 6 samples.

Results

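The regions described here are stretches of the mouse genome that are crowded with CpG sites and are nevertheless methylated in primed pluripotent cells. Autosomes were divided into tiles of 2 kb. A tile was called CpG-dense where it held over 80 CpG sites, and it needed 40 or more reads, summed over its sites, in every library. Of 9188 CpG-dense tiles, 447 missed that read minimum in at least 1 library, and 361 of these consisted of repeats over more than 50% of their length. The remaining 8741 were examined, and the 831 with a mean level of 40% or more in the EpiSC libraries are the members described below. The EpiSC levels therefore chose the members and are given as a description only, whereas the levels in ASCs and ESCs played no part in the choice, beyond the read minimum that all libraries had to meet. The whole table held 445422 tiles with enough reads on chromosomes 1 to 19 and X.

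Whole-genome bisulfite sequencing gave CpG methylation in 3 groups of mouse pluripotent stem cells, with 2 libraries per group. All 6 libraries carry the strain 129S2/SvPasCrl and a wild-type genotype in their labels, and the study describes the cells as female. ESCs were kept in 2i/LIF, a medium with inhibitors of MEK and GSK3 that holds them in the naive state. EpiSCs are in the primed state, close to that of the postimplantation epiblast. ASCs (advanced pluripotent stem cells) are clones that survived when a blastocyst-derived line, grown with Activin A and bFGF, was moved into a medium called ABCL. Its name stands for Activin A, BMP4, the GSK3 inhibitor CHIR99021 and LIF. The study picked those clones by a GFP reporter under Oct4 control, so ASCs stand for selected clones, and the sources used here do not say which lines were sequenced. Each library held between 63803799 and 74925271 CpG reads, and a member had a median of 393 to 492 reads in a library, with a range from 40 to 2272. The labels call the replicates biological but do not say whether the cultures were separate, so the tests measure at most the spread between these libraries. That spread was mostly pooled over all tiles, so a p-value says little about how far apart the replicates of its own tile lay.

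In vertebrate genomes most CpG sites carry methyl groups, and methylated CpG is lost over evolutionary time by mutation to TpG. CpG islands are the dense exceptions. They usually lie at gene starts and stay unmethylated through proteins that bind free CpG and through TET enzymes, while DNMT3A and DNMT3B place new methylation around implantation. Known exceptions among the islands are imprinted control regions, which are methylated on the allele of a single parent, and promoters of germline genes, which are silenced by methylation in the embryo. Intragenic islands in long coding exons and young repeats are other dense sequences that can be methylated.

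Windows of 300 bases from 5 members show what these sequences look like. They were chosen as an imprinted region, a germline promoter, the longest run of members, an exon nearly unmethylated in ASCs and a repeat. Each is the stretch of its tile with the most CpG sites that holds no exon base outside coding sequence, from the plus strand of GRCm38, and CpG sites are in capitals. The first lies beside the shared start of the imprinted genes Peg10 and Sgce at chr6:4748083-4748382, and the second at the germline gene Dazl at chr17:50292893-50293192. The third comes from the longest run of members, in the coding exons of Plec at chr15:76172306-76172605. The fourth lies in a coding exon of Pcdh10 at chr3:45380951-45381250, and the last is an intronic repeat in C130026I21Rik and Gm2619 at chr1:85223049-85223348.
Peg10/Sgce: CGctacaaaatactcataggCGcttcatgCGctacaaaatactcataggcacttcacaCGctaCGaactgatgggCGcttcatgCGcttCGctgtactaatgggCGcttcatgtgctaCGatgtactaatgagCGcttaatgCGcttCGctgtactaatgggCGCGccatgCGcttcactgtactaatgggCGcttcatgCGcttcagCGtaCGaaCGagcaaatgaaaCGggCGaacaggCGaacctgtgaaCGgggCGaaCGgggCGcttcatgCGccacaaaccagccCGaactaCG
Dazl: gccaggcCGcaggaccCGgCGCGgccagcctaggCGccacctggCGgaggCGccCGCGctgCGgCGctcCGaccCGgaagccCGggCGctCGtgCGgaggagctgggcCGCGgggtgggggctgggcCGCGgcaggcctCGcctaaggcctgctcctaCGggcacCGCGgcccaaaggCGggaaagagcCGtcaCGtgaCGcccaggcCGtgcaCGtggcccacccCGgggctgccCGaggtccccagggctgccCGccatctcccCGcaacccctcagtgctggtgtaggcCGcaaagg
Plec: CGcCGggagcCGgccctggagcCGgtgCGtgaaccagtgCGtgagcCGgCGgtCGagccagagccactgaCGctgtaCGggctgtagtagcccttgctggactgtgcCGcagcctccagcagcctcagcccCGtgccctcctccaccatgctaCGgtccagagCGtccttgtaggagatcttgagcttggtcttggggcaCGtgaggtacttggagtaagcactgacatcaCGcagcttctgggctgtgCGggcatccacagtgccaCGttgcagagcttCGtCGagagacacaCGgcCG
Pcdh10: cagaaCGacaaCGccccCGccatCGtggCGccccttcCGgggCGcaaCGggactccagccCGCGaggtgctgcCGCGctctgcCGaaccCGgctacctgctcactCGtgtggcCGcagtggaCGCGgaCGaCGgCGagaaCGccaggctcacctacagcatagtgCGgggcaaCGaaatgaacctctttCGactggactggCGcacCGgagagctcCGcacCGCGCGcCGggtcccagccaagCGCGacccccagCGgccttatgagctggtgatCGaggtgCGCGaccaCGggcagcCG
C130026I21Rik/Gm2619: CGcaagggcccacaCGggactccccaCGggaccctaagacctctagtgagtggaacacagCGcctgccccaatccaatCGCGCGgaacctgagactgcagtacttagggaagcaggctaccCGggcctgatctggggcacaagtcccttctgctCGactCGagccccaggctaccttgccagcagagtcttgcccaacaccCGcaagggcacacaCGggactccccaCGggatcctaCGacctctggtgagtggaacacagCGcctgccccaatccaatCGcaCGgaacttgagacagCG

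Reads summed over the CpG sites of these windows ranged from 61 to 271 per library, so a molecule counts at each of its sites. The Peg10/Sgce window with 31 CpG sites stood at 25.5% ± 5.63 in the ASC libraries, 0.355% ± 0.501 in those of ESCs and 52.7% ± 4.32 in those of EpiSCs (SD, n = 2 each). The Dazl window with 36 CpG sites was nearly filled in EpiSCs at 99.5% ± 0.693, but its ASC libraries lay apart at 22.8% and 4.7%. The Plec window with 23 CpG sites was at 97.1% ± 0.9 in EpiSCs, 62.7% ± 5.98 in ASCs and 26.9% ± 2.65 in ESCs. No methylated read was counted in ASCs in the Pcdh10 window, with 0 of 106 and 0 of 122 reads. By counting error alone these allow up to 2.83% and 2.46%. Reads at neighbouring sites of a molecule are not independent, so the actual limits are wider. In this window EpiSCs had 89.4% ± 1.95 and ESCs 0.696% ± 0.0597. The repeat window had the highest ESC level of these windows, 50.7% ± 11.5, beside 89.8% ± 5.39 in ASCs.

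Over the members as a whole, the median ASC level lay nearer to that of ESCs than to that of EpiSCs. Members had been chosen for a high EpiSC level, so this is a description. The median over members was 13.9% and 14.4% in the ASC libraries, 4.83% and 4.98% in the ESC libraries and 89.5% and 89.4% in the EpiSC libraries, which gives 14.1% ± 0.312 in the ASC libraries, 4.91% ± 0.109 in those of ESCs and 89.4% ± 0.0729 in those of EpiSCs (SD, n = 2 each). Over all tiles tested the same medians were 68.9% ± 0.129, 19.6% ± 0.247 and 92.1% ± 0.0295. In the other CpG-dense tiles they were 2.09% ± 0.0207, 0.973% ± 0.00335 and 5.97% ± 0.242, so a low ASC level was not particular to the members. ASCs were thus below EpiSCs over the genome and by a wider margin in the members, as a description, since the EpiSC level was fixed by the choice. Of the members, 307 were under 10% in ASCs, a further 207 lay between 10% and 20%, and 129 were at 60% or more.

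**Figure D1:**
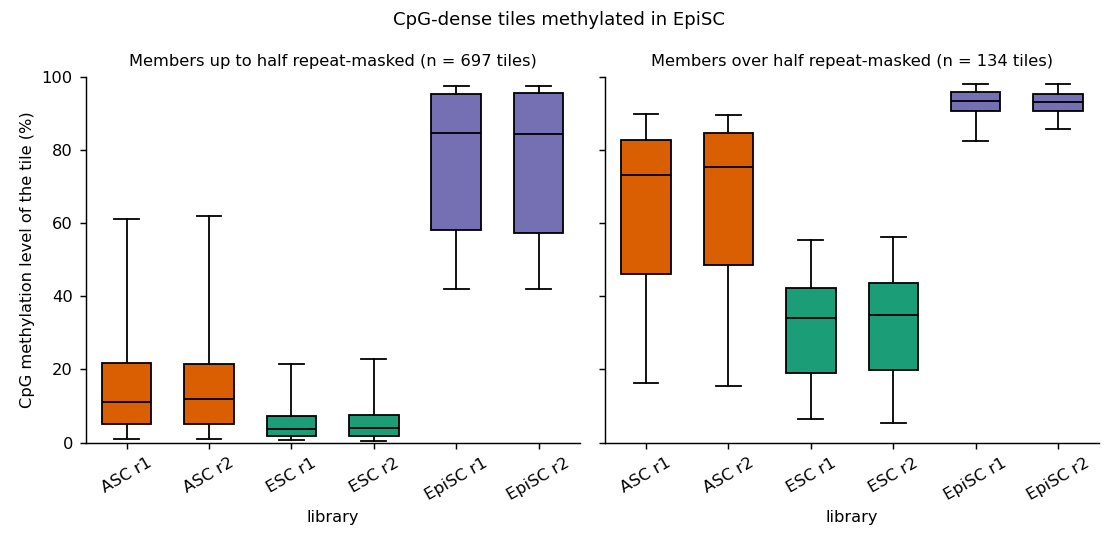
Methylation level (%) of the members in each of the 6 libraries, for the 697 members with up to 50% of their bases repeat-masked (left) and the 134 with more (right). Boxes span the quartiles with the median as a line, and whiskers run from the fifth to the 95th percentile. The replicates of a group look alike, and ASC boxes sit low on the left and high on the right.

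Whether ASCs differed from ESCs was tested tile by tile across the whole table with a quasi-binomial logistic model, and calls needed both an adjusted p under 0.05 and a gap of 20 percentage points or more between the group means. Of the 831 members, 232 were called higher in ASCs, which is 27.9%. Among all tiles 91.1% were called higher in ASCs, and among all CpG-dense tiles 2.88%. The median ASC minus ESC difference was 8.95 points in the members, 46.5 points over all tiles and 1.05 points in the 7910 other CpG-dense tiles. Without the requirement of 20 points, 693 members (83.4%) passed with ASCs higher, against 97.4% of all tiles and 47.4% of all CpG-dense tiles, and 2 with ASCs lower, against 0.0707% of all tiles and 3.13% of all CpG-dense tiles. In 725 members both ASC libraries stood above both ESC libraries, against 98.3% of all tiles and 60.1% of all CpG-dense tiles. In 12 members both stood below, and in 94 the groups overlapped. The shares of these among all tiles were not counted, so nothing is read from them. Differences of under 20 points thus made up most of those that passed the adjusted p.

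No member was called lower in ASCs than in ESCs, and no tile of the whole table was either (0%). Such a call needs an ESC level of 20% or more, which 141 members and 218712 of all tiles had. For the rest the absence of a lower call was fixed by the 20 points required. At an unadjusted p under 0.05, 2 members had a lower level in ASCs by the model, 2 by edgeR, 5 by limma on M values and 4 by Fisher's exact test. The pair from the model also passed its adjusted p and was looked up after the values were seen. A tile of Csf2ra, a subunit of the GM-CSF receptor, read 0.114% and 0.847% in ASCs against 2.36% and 1.67% in ESCs (adjusted p = 0.00039). A tile of Crlf2, a subunit of the TSLP receptor, read 3.48% and 1.62% against 6.25% and 4.33% (adjusted p = 0.025). Both differences are far below 20 points.

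For the difference from EpiSCs, the median ASC minus EpiSC value over members was −54.1 points, against −20.9 points over all tiles. As a count, 719 members met the criteria for a lower level in ASCs than in EpiSCs, where 53.5% of all tiles did, and all 831 met them for a higher level in EpiSCs than in ESCs, where 96.5% of all tiles did. These counts follow from the choice of members and nothing is read from them. The median EpiSC minus ESC difference was 70.8 points.

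The levels of members ranged widely within EpiSCs. Between 40% and 50% lay 114 members, between 50% and 60% another 82, between 60% and 80% 129, between 80% and 90% 91, and 415 were at 90% or more. Just outside were tiles of Irf2bp1, Sptbn4, Cdh6 and Mrps2, with EpiSC means of 39.77%, 39.83%, 39.96% and 39.99%. Just inside were Npbwr1 at 40.02%, Rnaset2b at 40.06%, Vwa1 at 40.1% and Tpbg at 40.11%. The replicates of a tile could lie on both sides of the threshold, since Mrps2 read 32.4% and 47.6% and Tpbg 49.7% and 30.5%.

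Most tiles with an intermediate level in EpiSCs were unevenly methylated along their length. Levels were computed for windows of 500 bp with at least 20 reads in each group. Among 190 members at 40% to 60% in EpiSCs with 3 or more such windows, the median range between the lowest and the highest window was 67.1 points, and 140 spanned more than 50 points. Only 5 spanned less than 20 points. The tile at the start shared by Polr2i, a subunit of RNA polymerase II, and Tbcb, a tubulin folding factor, went from 0% in its first window to 69.5%, 93.3% and 96.5% in the others. Among 404 members at 80% or more the median range was 5.71 points and 359 were under 20 points. A level near 100% leaves little room for a range between windows, so the classes of EpiSC level are not compared by it.

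By position, members fell into several classes. Of them, 363 (43.7%) lay within 1 kb of a protein-coding start, 241 (29.0%) reached into other coding exons, 70 (8.42%) into other exons, 49 (5.9%) lay in introns and 108 between genes. Of the other CpG-dense tiles 91.5% lay at a start and 2.88% in coding exons. Without the repeat-rich members described below, 362 of 697 (51.9%) lay at a start. Members at starts were less fully methylated in EpiSCs (67.4% ± 0.442) than members in coding exons (95.1% ± 0.392). In ASCs the same medians were 10.1% ± 0.0499 at starts and 16.3% ± 1.76 in coding exons, and in ESCs 3.15% ± 0.0957 and 5.75% ± 0.179. Of the members at starts 38 (10.5%) were called higher in ASCs, and of those in coding exons 62 (25.7%), beside 17.8% of the members other than repeat-rich ones and 27.9% of all members.

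Members shared some base composition with other dense tiles. The ratio of observed to expected CpG had a median of 0.602 in members, 0.692 in the other CpG-dense tiles and 0.225 over all tiles, while the GC content was 57.5% in members and 56.9% in the others. Letters searched on both strands were TGCCGC, a letter form of the target of ZFP57, a protein that protects imprints, the E-box CACGTG and the E2F core TCCCGC. The first occurred in 59.7% of members, 70.3% of the other CpG-dense tiles and 20.4% of all tiles. CACGTG occurred in 37.5%, 33.1% and 27.1%, and TCCCGC in 69.9%, 87.6% and 22.4%. Without the repeat-rich members described below, the shares of members were 67.7% for TGCCGC, 40.3% for CACGTG and 79.5% for TCCCGC. Matches of the first and the last of these can share bases at their ends, and a match is a description of letters, not a binding site.

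A second division of the members was by repeats and was made after the values had been seen. In 134 members more than 50% of the bases were soft-masked as repeats in the reference, and these are called repeat-rich here. Their median level was 74.2% ± 1.48 in the ASC libraries, 34.5% ± 0.614 in those of ESCs and 93.2% ± 0.177 in those of EpiSCs. The other 697 members stood at 11.5% ± 0.436, 3.9% ± 0.145 and 84.6% ± 0.309. Of the repeat-rich members 108 were called higher in ASCs (80.6%), and of the others 124 (17.8%), both below the 91.1% of all tiles tested. The low ASC level over members thus describes the 697, not the repeat-rich tiles.

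The repeat-rich members differed in several further ways. Of these tiles 90 lay between genes and 35 in introns, and only 1 at a protein-coding start. Words of 31 letters from them had a median of 238 copies in the genome, against 1 for the other members. They had a median of 6.78 reads per CpG summed over all libraries, against 30.3 in the others. Reads that fit several copies cannot be placed with certainty, and how many were lost or shared between copies was not tested. With 100 or more reads required in every library, 704 members remained by the same rule and 140 were called higher in ASCs.

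**Figure D2:**
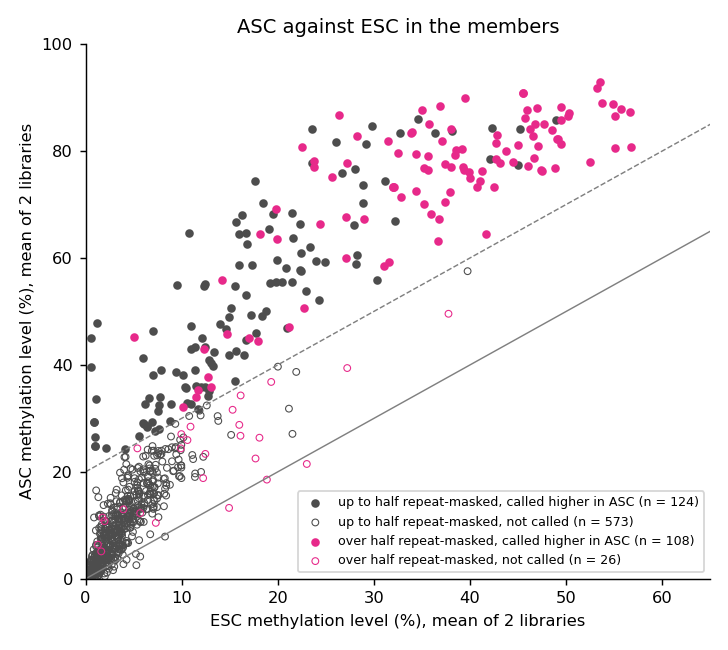
Mean methylation level (%) of the 2 ASC libraries (vertical) against that of the 2 ESC libraries (horizontal) for the 831 members. Filled points were called higher in ASCs, pink points have more than 50% of their bases repeat-masked, the solid line marks equal levels and the dashed line a difference of 20 points. Most members lie near the origin, 92 of the 134 pink points lie at 60% or more in ASCs with the rest spread below, and 9 filled points stand close to the vertical axis.

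Members with higher ASC levels mostly had higher ESC levels, with exceptions at imprinted genes and Zfp316 given below. Across the 831 members the ASC and ESC means correlated with r = 0.93, and across the 697 others than repeat-rich with r = 0.907, as a description over tiles that share the same libraries and are not independent. Over all CpG-dense tiles r was 0.92 and over all tiles 0.763, so a high r was not particular to the members. In the 196 members under 60% in EpiSCs it was 0.614. The 6 members with the highest ESC levels were all repeat-rich. A tile between genes, whose nearest protein-coding start is that of Olfr161 at 229042 bases, had only 41 to 99 reads per library. It read 54.5% and 58.9% in ESCs and 76.7% and 84.8% in ASCs (adjusted p = 4.39e-05). Without ASC replicate 2 its difference was 19.9 points and no longer called. Another tile between genes, 7540 bases from the start of Olfr1355, lost its call in the same way, with 18.1 points. In EpiSCs both these tiles were above 90% in each library.

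Of the 6 members with the highest ASC level relative to EpiSCs, 5 were repeat-rich as well. The exception was Nacc2, which encodes a transcriptional repressor. Its tile read 43.5% and 42.2% in ASCs, 37.5% and 44.7% in EpiSCs, and 10.6% and 11.3% in ESCs (ASCs against ESCs, adjusted p = 9.64e-27). Both the first windows of this tile were methylated in ASCs at 71.1% and 82.3% and in EpiSCs at 95.5% and 87.7%, and the last was at 0.433% and 0.434%, so the similar means covered unlike levels in the first windows.

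CpG density went along with the ASC level at a matched EpiSC choice. Tiles at 90% or more in EpiSCs were sorted by the number of CpG sites, with repeat-rich tiles set aside. Median ASC levels were 72.2% ± 0.148 at 1 to 20 sites (97289 tiles), 71.9% ± 0.124 at 21 to 40 (157961 tiles) and 64.6% ± 0.272 at 41 to 80 (13095 tiles). They were 20.2% ± 0.17 at 81 to 100 sites (187 tiles) and 8.36% ± 1.05 above 100 sites (116 tiles). ESC medians were 21.4% ± 0.208 in the sparsest class, 22.1% ± 0.296 and 19.4% ± 0.308 in the next classes, 7.41% at 81 to 100 sites and 3.29% ± 0.439 in the densest, while EpiSC medians stayed between 94.0% and 96.3% by choice. Repeat-rich tiles at 81 to 100 sites stood at 77.3% ± 1.77 in ASCs and 36.0% ± 1.06 in ESCs (93 tiles). With EpiSC levels of 40% or more, 25 repeat-rich tiles above 100 sites stood at 49.1% ± 5.83 in ASCs and 26.3% ± 3.86 in ESCs, below the 77.2% ± 1.15 and 36.2% ± 0.789 of the 109 at 81 to 100 sites.

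**Figure D3:**
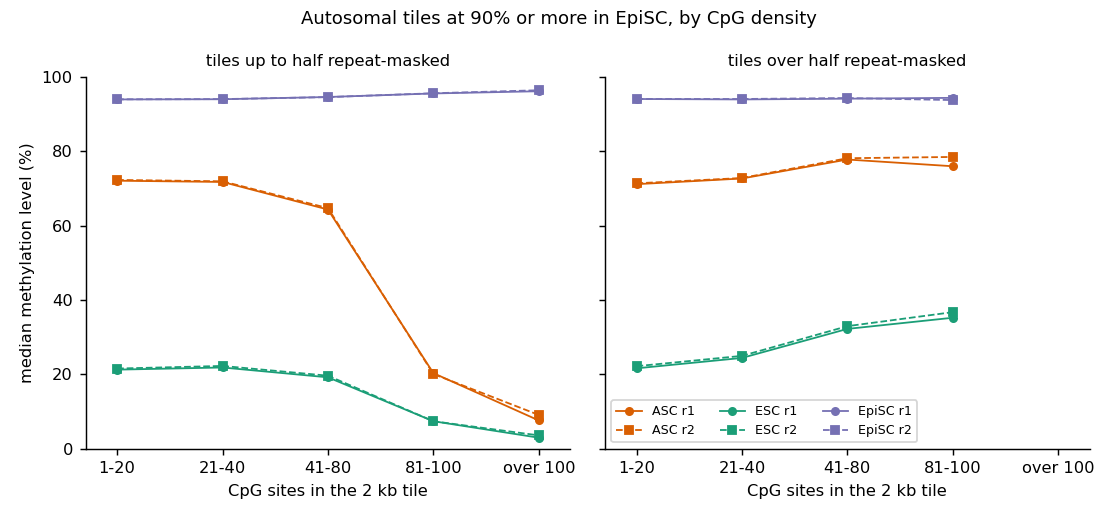
Median methylation level (%) in each library of autosomal tiles at 90% or more in EpiSCs, by the number of CpG sites in the tile, for tiles with up to 50% of their bases repeat-masked (left) and with more (right, where the densest class held fewer than 20 tiles and is not drawn). The ASC lines drop on the left from 72.2% in the sparsest to 8.36% in the densest class and stay above 70% in the classes drawn on the right.

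The low ASC level was local. Beside the 697 members other than repeat-rich ones, the tiles at 2 kb on either side had median ASC levels between 48.7% and 50.5%, and those from 4 to 10 kb between 58.1% and 63.2%, against 11.2% and 11.8% in the members themselves. In ESCs the members stood at 3.8% and 4.01% and the tiles 10 kb away at 15.6% to 16.7%. EpiSC levels were 84.8% and 84.4% in the members and between 90.5% and 91.9% around them. Around the repeat-rich members ASCs showed no such dip, with 65.7% to 79.8% in the neighbours. ESC levels were highest in the member, with 34.0% and 34.9%, and 2 kb after it, with 34.5% and 37.3%. They were 27.6% and 34.8% at 2 kb before it, 18.9% to 31.5% at 4 kb and 16.7% to 19.3% at 10 kb. Only 21 to 34 neighbours per distance had enough reads there.

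**Figure D4:**
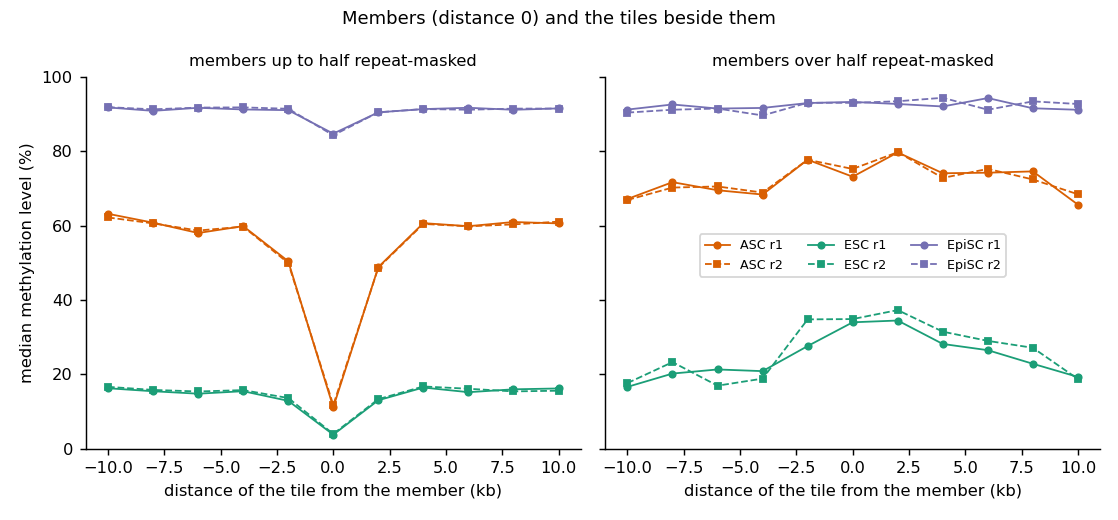
Median methylation level (%) in each library of the members (distance 0) and of the 2 kb tiles up to 10 kb on either side that had enough reads, for members with up to 50% of their bases repeat-masked (left, 491 to 697 tiles per point) and with more (right, 21 to 134 tiles per point). On the left ASCs and ESCs dip at the member while EpiSCs hardly do, and on the right ESCs peak near the member.

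Most members stood alone. Of them 748 had no member beside them, 33 pairs were adjacent, 4 runs had 3 members and 1 had 5. The longest run covered 10 kb of coding exons of Plec, which encodes the cytoskeletal linker plectin (chromosome 15, 76172001 to 76182000). EpiSC levels were between 95.2% and 97.8% in all 5 tiles. In the order of coordinates the ASC libraries read 72.6% and 76.1%, then 61.2% and 56.4%, 60.9% and 57.9%, 34.9% and 36.4%, and 12.6% and 13.5%. ESCs fell along the run from 28.6% and 33.6% to 5.99% and 5.4%. Of these tiles 4 were called higher in ASCs, and the fifth differed by 7.35 points (adjusted p = 2.5e-09). The last tile had 140 CpG sites and the first 92, so density and position along the gene cannot be told apart here.

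Runs of 3 tiles differed in kind. In Spen, which encodes a transcriptional repressor needed for X inactivation, all 3 coding-exon tiles were called higher in ASCs, with ASC levels from 39.3% to 63.6%, ESC levels from 12.6% to 22.5% and EpiSC levels from 95.3% to 97.2%. The tiles of Ahnak2 were likewise all called higher in ASCs, with 52.6% to 68.9% in ASCs and 9.85% to 23.5% in ESCs. Pcdh10, a protocadherin of neural tissue, was the opposite case. Its 3 tiles held 83.7% to 88.1% in EpiSCs, 0.397% to 1.23% in ASCs and 0.297% to 1.26% in ESCs, and none was called between ASCs and ESCs. The run at Crlf2 fell from 24.1% and 19.8% in ASCs in its first tile to 3.7% and 1.01% in its last.

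Among members at protein-coding starts the largest called differences between ASCs and ESCs, all with ASCs higher, were led by Flg, Ahnak2, Polrmt and Fat1. A tile of Flg, the skin barrier protein filaggrin, read 78.2% and 91.2% in the ASC libraries against 35.4% and 24.2% in ESCs (adjusted p = 2.74e-21), and a second Flg tile 83.3% and 83.5% against 29.1% and 36.4%. Polrmt, the RNA polymerase of mitochondria (chromosome 10, 79738001 to 79740000), read 69.6% and 66.5% against 12.9% and 19.6% (adjusted p = 2.11e-48). Fat1, a giant cadherin, read 66.5% and 62.9% against 18.1% and 15.3% (adjusted p = 1.03e-35). A tile in Fam71e2, 907 bases from the start of Cox6b2, a testis subunit of cytochrome oxidase, read 62.4% and 55.0% against 13.3% and 18.6% (adjusted p = 1.81e-12). All of these were above 94% in both EpiSC libraries, and the ASC and ESC libraries did not overlap in any of them. Depth was low in several of these tiles, against a median of 28.2 reads per CpG, summed over all libraries, in the members. It was 8.51 and 6.43 at Flg, 5.93 at the leading Ahnak2 tile and 6.67 at the tile near Cox6b2. Ahnak2 is given with its run above, and the imprinted genes Mest and Plagl1 completed the leading 8.

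The smallest differences were at tiles nearly free of methylation in both ASCs and ESCs. Epha5, an ephrin receptor, read 1.16% and 0.787% in the ASC libraries against 0.433% and 1.55% in ESCs, but 81.8% and 89.5% in EpiSCs. Car10, a carbonic anhydrase relative, read 1.01% and 0% in the ASC libraries, 0.663% and 0.436% in those of ESCs and 95.8% and 96.3% in those of EpiSCs. Lingo2, Rxfp3, a relaxin family receptor, Polr2i/Tbcb, Crlf2 and Pcdhgb6 were likewise low in both, with ASC levels from 0.504% to 3.7% and adjusted p from 0.822 to 0.909. Their EpiSC means varied more, with 54.4% at Crlf2, 57.5% at Polr2i/Tbcb, 60.8% at Lingo2, 77.7% at Rxfp3 and 95.2% at Pcdhgb6. In all, 54 members were under 5% in ASCs and at 90% or more in EpiSCs, of which 20 lay at a start, 21 in coding exons and 12 in other exons.

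The members with the most CpG sites were likewise low in ASCs. Dio3, an enzyme that inactivates thyroid hormone at the end of the imprinted Dlk1-Dio3 domain, held 235 CpG sites and read 3.86% and 3.31% in the ASC libraries, 1.49% and 3.17% in those of ESCs and 47.6% and 44.8% in those of EpiSCs (ASCs against ESCs, adjusted p = 0.0535). Nsd1, a methyltransferase for lysine 36 of histone H3, held 204 sites and read 1.12% and 3.03%, 2.35% and 0.357%, and 90.5% and 90.1% in the same order. Its first 3 windows were between 97.2% and 99.2% in EpiSCs and the last at 21.6%. Nrg3 and Apba1 reached at most 8.81% in an ASC library. Hspa1a/Hspa1l, heat-shock protein genes, read 14.5% and 7.98% in the ASC libraries against 3.46% and 4.55% in ESCs. None of these was called.

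Imprinted genes carry methylation on the allele of a single parent. Of 32 CpG-dense tiles at a start of a listed imprinted gene, 17 were members (53.1%, beside 9.51% of all CpG-dense tiles). They had median levels of 15.5% ± 0.918 in the ASC libraries, 1.13% ± 0.119 in those of ESCs and 51.4% ± 0.0396 in those of EpiSCs. Between 40% and 60% in EpiSCs lay 13 of the 17, beside 196 of all 831 members and 148 of the 363 members at starts. The rule removed tiles under 40%, so these counts are a description. Some of those 13 were uneven along the tile, with a range between windows in EpiSCs of 71.8 points at Igf2r and 61.9 points at Grb10. Others were more even, with 14.5 and 17.0 points at Peg10/Sgce. Of the 17, 7 were called higher in ASCs, where 10.5% of members at starts and 27.9% of all members were, and 0 lower, with a median difference of 12.1 points beside 8.95 points over all members, and no test compared them with the rest. The level in ESCs was 5.37% or less in all 17, so none of them could have been called lower. All 17 held TGCCGC at least in 1 place, as did 69.7% of members at starts and 70.3% of the other CpG-dense tiles, 5 held CACGTG and 9 held TCCCGC.

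The imprinted tiles called higher in ASCs were those of Mest, Plagl1, Nnat, Peg10/Sgce and a stretch of Gnas. Mest, a maternally silenced gene of the hydrolase family (start tile on chromosome 6, 30738001 to 30740000), read 50.2% and 39.9% in the ASC libraries, 0.598% and 0.477% in those of ESCs and 50.1% and 53.5% in those of EpiSCs (ASCs against ESCs, adjusted p = 2.56e-42). Plagl1, a zinc finger regulator of growth, read 31.8% and 47.3%, 1.05% and 0.152%, and 56.5% and 43.9% in that order (adjusted p = 2.24e-41). Its ASC libraries differed by more than its distance to EpiSCs. Nnat, expressed from the paternal allele in brain, read 29.0% and 29.5% in the ASC libraries, 0.765% and 1.04% in those of ESCs and 88.1% and 90.9% in those of EpiSCs. The Peg10/Sgce tiles, whose window is printed above, read 25.3% and 24.4%, and 25.7% and 32.8%, in ASCs, with ESCs at 1.46% or less in both.

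The naming rule gave the 6 imprinted tiles with the most reads, at Gnas, Cdkn1c and Zrsr1, and the others are named with their values known. Further imprinted members were not called. Zrsr1, a splicing factor retrogene in an intron of Commd1, read 0.349% and 1.14% in the ASC libraries, 0.324% and 0.493% in those of ESCs and 48.5% and 47.3% in those of EpiSCs (ASCs against ESCs, adjusted p = 0.337). The tile of Gnas that includes the start of Nespas read 1.35% and 0.957% in the ASC libraries against 46.2% and 51.3% in EpiSCs, whereas the Gnas tiles about 12 kb on read 22.1% and 30.8%, and 24.1% and 25.6%, in ASCs, and were called. A further pair of Gnas tiles was not called. The first read 8.44% and 4.2% in ASCs against 2.77% and 4.28% in ESCs (adjusted p = 0.0152) and 71.4% on average in EpiSCs, and the second 3.35% and 4.22% against 0.586% and 1.49% (adjusted p = 0.000186) and 55.0% on average in EpiSCs. Cdkn1c, a growth-restraining CDK inhibitor, was above 50% in EpiSCs in both tiles and between 2.48% and 8.4% in ASCs. Grb10 read 16.9% and 16.1% in ASCs against 1.01% and 1.21% in ESCs, and Slc38a4 14.8% and 20.2% against 5.37% and 5.36%. These and Igf2r (8.09 points) and Mcts2 (6.03 points) had adjusted p from 1.45e-21 to 1.91e-05 but differences under 20 points. The 15 dense tiles at imprinted genes that were no members included a second tile at Nespas and Gnas at 39.7%, Impact at 37.4%, Kcnq1 at 34.3% and Peg12 at 33.2% in EpiSCs.

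Among called members 9 were under 2% in ESCs, and this set was formed after the values were seen. Of these 9, 7 were the imprinted tiles just named, at Mest, Plagl1, Nnat, Peg10/Sgce and Gnas. The other pair were neighbouring coding-exon tiles of Zfp316 (chromosome 5, 143252001 to 143256000), a zinc finger gene on no imprinted list here. They read 41.2% and 54.3%, and 35.1% and 32.4%, in ASCs, 1.49% or less in ESCs, and 74.9% and 72.8%, and 62.6% and 52.4%, in EpiSCs (adjusted p = 1.36e-62 and 5.14e-52). In all, 186 members were under 2% in ESCs, 11 of them at imprinted genes. The share called among all tiles or all CpG-dense tiles under 2% in ESCs was not counted, so these counts are a description and nothing is read from them.

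Germline and meiosis genes were members in 10 of 13 CpG-dense tiles (76.9%, beside 9.51% of all CpG-dense tiles). Their median levels were 18.3% ± 1.79 in the ASC libraries, 4.4% ± 0.791 in those of ESCs and 74.9% ± 0.874 in those of EpiSCs. Dazl, an RNA-binding protein of germ cells, was called higher in ASCs, with 52.8% and 34.1% against 11.4% and 11.3% in ESCs (adjusted p = 8.51e-27) and 96.9% and 97.9% in EpiSCs. The rest were not called, with differences from 2.3 to 19.6 points. Among members at starts 10.5% were called, and among members other than repeat-rich ones 17.8%. The nearest were Tdrd6, a tudor protein of germ granules (29.8% and 28.1% against 8.33% and 10.3%), Henmt1, which modifies piRNA ends (28.9% and 32.0% against 14.3% and 13.2%), and Tex15 (24.0% and 16.8% against 4.73% and 3.3%). Tdrd6 crossed the 20-point line without ASC replicate 2 or ESC replicate 2 and Tex15 without ASC replicate 2. Meioc, Tdrkh, Pld6, Cpeb1, Syce2 and Tex14 had lower ASC levels, from 2.06% to 22.3%, and the tile of Tex14 is shared with the start of the repair gene Rad51c.

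**Figure D5:**
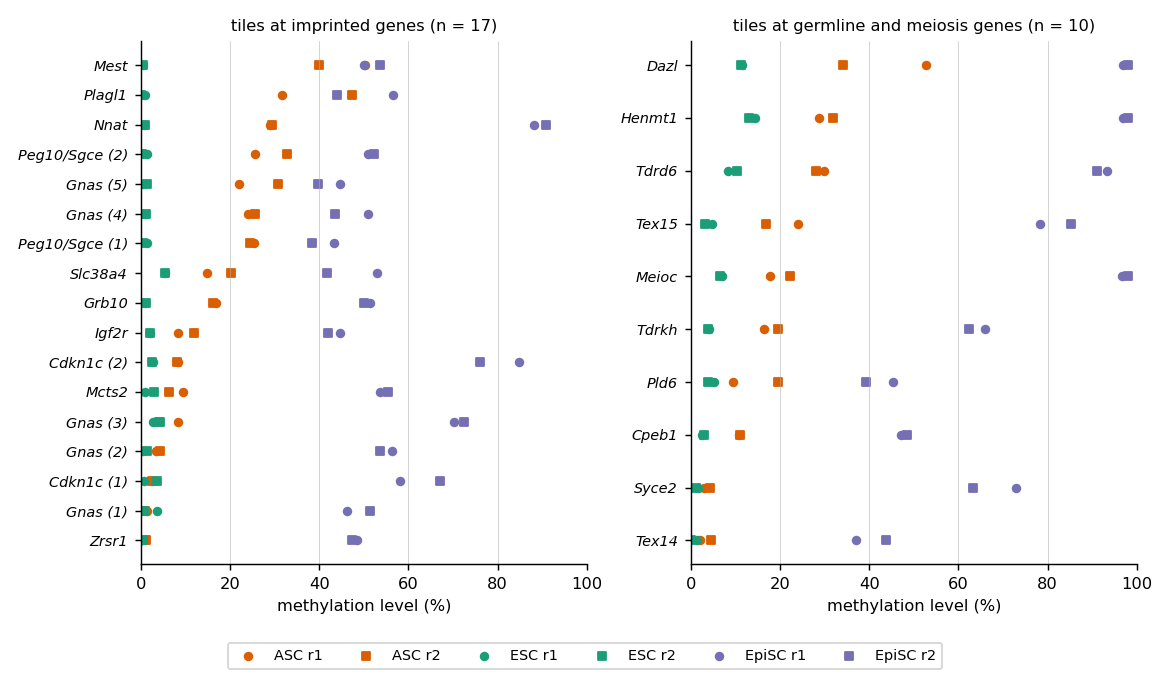
Methylation level (%) in each of the 6 libraries (circles, replicate 1; squares, replicate 2) of the 17 members at imprinted genes (left) and the 10 at germline and meiosis genes (right), in the order of the ASC mean. Tiles of a gene with several members are numbered by that order. ESC points stay at or below 5.37% on the left, and most EpiSC points lie between 40% and 60% on the left and spread more widely on the right.

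Clustered protocadherins, neuronal adhesion genes whose alternative first exons are each a CpG island, were members in 14 of 16 dense tiles (87.5%, beside 9.51% of all CpG-dense tiles), all on chromosome 18. Their medians were 13.7% ± 0.801 in the ASC libraries, 5.34% ± 0.643 in those of ESCs and 94.0% ± 0.429 in those of EpiSCs. Called higher in ASCs were 2 of the 14, which belong to neighbouring genes of the alpha cluster. Of members at starts 10.5% were called, and of those other than repeat-rich ones 17.8%, and 14 tiles are too few to tell from either. Pcdha6 read 70.4% and 61.8% in the ASC libraries against 28.7% and 27.2% in ESCs (adjusted p = 1.27e-27), and Pcdha7 53.2% and 47.1% against 18.59% and 18.97% (adjusted p = 2.62e-25). Pcdha8, named after its value was seen, read 35.7% and 43.6% against 19.04% and 20.98%, or 19.7 points. By these values its difference passes 20 points without ASC replicate 1 and also without ESC replicate 2. No fit with a library left out was read for this tile. Further members of the alpha cluster and those of the gamma cluster were between 1.2% and 19.11% in ASCs. Tiles of neighbouring exons thus ranged from 1.52% to 66.1% in ASCs and from 79.5% to 96.4% in EpiSCs.

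In the other gene lists the share of members is read beside the 9.51% of all CpG-dense tiles. Of 225 CpG-dense tiles at developmental factor families 5 were members (2.22%), among them Sox30, Foxj1 and Sox10, and 0 of the 5 were called higher in ASCs, too few to set against the 10.5% of members at starts. Sox10, a regulator of neural crest, was the highest of them in ASCs, with 14.9% and 13.9% against 4.83% and 5.65% in ESCs. Of 124 tiles at zinc finger genes 10 were members (8.06%, close to the share of all dense tiles) and 1 of these 10 was called, where 10.5% of members at starts and 17.8% of members other than repeat-rich ones were, the Zfp316 tile with 54.3% in ASC replicate 2. Zfp865 showed the widest contrast among them, with 2.23% and 0.985% in ASCs and 97.8% and 97.2% in EpiSCs. Of 14 tiles at naive pluripotency genes only that of Klf2 was a member. This tile lay in the gene body, 968 bases from a start, with a range between windows of 52.7 points in EpiSCs. It read 1.94% and 0.26% in the ASC libraries, 0.598% and 0.26% in those of ESCs and 66.1% and 62.3% in those of EpiSCs. None of 13 tiles at trophoblast regulators and none of 9 at genes of the DNA methylation machinery was a member, which is too few tiles to tell from that share.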

How the data were processed

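CpG methylation was measured by post-bisulfite adaptor tagging (PBAT) in 6 libraries, 2 each of ASCs, ESCs and EpiSCs. The authors trimmed reads with Trim Galore, aligned them to GRCm38 with Bismark 0.16.3 in PBAT mode, removed duplicates and combined both strands of each CpG with MethPipe (version not given in the sources used here). Per CpG, the columns deposited are a methylation level as a fraction and a coverage count, with no normalization. The labels also list another genome build, but every listed site on chromosomes 1 to 19 and X fell on a CpG of GRCm38.

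Methylated reads were recovered as level times coverage, which came within 0.000115 of a whole number. Sites were summed over 2 kb tiles with 40 or more reads in every library, so a level is weighted by coverage. Mean coverage was 2.96 to 3.46 reads per CpG. Reads at neighbouring sites of a molecule are not independent, and a count of 0 covers counting error only. A quasi-binomial logistic model of group was fitted to all 445422 tiles, with the dispersion moderated by limma 3.58.1 in R 4.3.3, a two-sided F test and Benjamini-Hochberg adjustment. A tile was called at an adjusted p under 0.05 and a difference of 20 points. The procedure was tested on simulated data. The model gave EpiSC contrasts for every tile, but in the members their counts are a description and support nothing, since EpiSC levels chose the members. Genes and exons came from GENCODE vM21, and repeats from the soft-masked genome without family names.

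Named tiles were, within 1 kb of a protein-coding start, the 8 called members with the largest and the 8 members with the smallest ASC minus ESC difference. Further named tiles were the 6 with the most CpG sites, 4 on each side of the threshold, the 6 highest in ASCs relative to EpiSCs, the 6 highest in ESCs, the longest runs, and list members (all where 12 or fewer, otherwise the 6 with the most reads). A few tiles these rules give are not reported here. Members, lists and tests were chosen with earlier results of these data known, and the split by repeats and the set under 2% in ESCs were made after values were seen. Alternatives were limma on M values, edgeR 4.0.16, Fisher's exact test, other read, CpG and level thresholds, shifted tiles, a replicate block and leaving out each library.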

Additional observations from a re-analysis of the deposited data

How the results depend on the processing

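The count of members called higher in ASCs than in ESCs was 232 and stayed between 212 and 302 under limma (231), edgeR, Fisher's exact test, a dispersion floor, shifted tiles, 20 reads per library and EpiSC levels of 30% or 60%, and between 222 and 245 with 1 library left out. It moved to 693 with no difference required and 76 with 40 points required, to 140 with 100 reads per library, to 1476 of 3001 members over 60 CpG sites and 42 of 316 over 100, and to 124 without repeat-rich members, an alternative chosen after seeing the data. No setting called more than 2 members lower, and where a difference was required most members were too low in ESCs for such a call. The median ASC minus ESC difference of 8.95 points became 19.4 over 60 CpG sites, 4.65 over 100 and 7.4 without repeat-rich members, and lay between 7.68 and 10.6 with other read minimums, EpiSC levels, shifted tiles or a library left out.

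The median ASC minus EpiSC difference of −54.1 points became −52.6 with 20 reads, −58.1 with 100 reads, −43.4 and −65.0 with EpiSC levels of 30% and 60%, −43.4 over 60 and −63.3 over 100 CpG sites, −56.6 with shifted tiles, −59.7 without repeat-rich members and −57.7 as an unweighted mean over sites. With 1 library left out it ranged from −55.1 to −53.7. The EpiSC minus ESC difference of 70.8 points became 69.9, 72.3, 59.5, 79.1, 69.9, 73.6, 72.1, 73.6 and 73.7 in the same order, and ranged from 68.95 to 71.9 with 1 library left out. The cause was not tested beyond the members each rule admits.

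With the replicate block 232 members were called. The labels share replicate numbers, but the deviations of same-numbered libraries correlated at 0.00232, −0.00617 and −0.00065 over all tiles (ASCs with ESCs, ASCs with EpiSCs, ESCs with EpiSCs) and at 0.134, −0.0379 and −0.0437 over the members. Not every pair correlated, so the numbers were not taken to pair the libraries. Of 84 named tiles, the repeat-rich tiles between genes whose nearest starts are Olfr161 and Olfr1355 lost their call without ASC replicate 2. The tiles of Tdrd6 and Tex15 gained a call without ASC replicate 2, and that of Tdrd6 also without ESC replicate 2. Depth limits the repeat-rich members most, at a median of 6.78 reads per CpG over all libraries.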

Other observations

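The X chromosome was left out of the members and gave a different picture in EpiSCs. Of its 217 CpG-dense tiles with enough reads, 141 (64.98%) were at 40% or more in EpiSCs, against 9.51% of the autosomal CpG-dense tiles. The median over the X tiles was 45.6% and 43.0% in the EpiSC libraries, 1.62% and 1.79% in ASCs and 0.837% and 1.03% in ESCs. On the autosomes the same medians were 7.0% and 6.61%, 2.42% and 2.46%, and 1.09% and 1.08%. The 141 tiles had medians of 50.6% and 49.4% in EpiSCs, 2.23% and 2.16% in ASCs and 1.07% and 1.38% in ESCs, so on the X the ASC and ESC levels lay close together. These differences were not tested.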
